A study of Canis lupus familiaris with 4 samples.

Results

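The genes described are 9 genes of sulfur metabolism, antioxidant defence and metal binding in dog glioblastoma cells: CDO1, SQOR, CTH, CBS, GCLC, GCLM, TXNRD1, NQO1 and MT2A. They were taken by gene symbol, with every probe set that carried 1 of these symbols alone, which gave 26 of the 42924 probe sets on the array and 9 of the 15115 genes with a symbol. The genes were chosen by their ratios between these same arrays, which were already known, so all their ratios are descriptions and carry no test. J3T-1 and J3T-2 are subclones from the same parental canine glioblastoma cells, described by the study as expressing high and low annexin A2 (ANXA2). J3T-1shA is the J3T-1 line with ANXA2 knocked down, and J3T-2A is the J3T-2 line with ANXA2 overexpressed. All 4 lines were grown in the same serum-containing medium, and neither an empty-vector nor a scrambled-RNA control line was among the samples. Every line had a single Affymetrix canine array, so there are no replicates, and line and array cannot be told apart.

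Cysteine stands at a branch point of metabolism. Transsulfuration makes it from homocysteine through CBS and CTH, glutamate-cysteine ligase commits it to the antioxidant glutathione through GCLC and GCLM, and CDO1 oxidizes it towards taurine and sulfate. CBS and CTH can also release hydrogen sulfide, which SQOR oxidizes in mitochondria, while TXNRD1 and NQO1 are reductases that the transcription factor NRF2 is known to induce, and MT2A is a small cysteine-rich protein that binds zinc and copper.

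The values are linear probe set signals from MAS 5.0, and each array had been scaled to one trimmed mean. The methods set this target at 100, but the deposited columns had trimmed means of 495.8 to 496.0, so the deposited scale was read as 5 times the stated one. The medians were 101.8 to 106.5 and the highest signals 44435 to 46646. A gene counted as measured in a pair of arrays where the higher signal was at least 250, which is 50 on the stated scale, and as different at a ratio over 2. As the error of a ratio, the difference in log2 ratio between the 2 brightest probe sets of a gene had an SD of 0.29 to 0.41 across the 6 pairs. This SD is called the probe-set error below, and a ratio beyond it is larger than the SD of its pair. The 95th percentile of the absolute difference was higher, at 0.56 to 0.73. The probe-set error says nothing of how separate cultures would vary.

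The array does not settle the ANXA2 levels described for the lines. The brightest ANXA2 probe set had signals of 28656 on the array labelled J3T-1, 30093 on J3T-1shA, 30103 on J3T-2 and 28775 on J3T-2A, among the bright signals of every array. A second probe set had 24128, 25725, 30311 and 35651 in the same order, with both ANXA2 comparisons within 2-fold. Line names below therefore stand for the arrays as labelled.

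Of the 26 member probe sets, 14 reached the signal limit on all 4 arrays, 5 on some and 7 on none. By its brightest probe set, each of 7 genes was over the limit on all 4 arrays, CDO1 was under it on J3T-2, and CBS was under it throughout. By their brightest probe sets the members fell into a few patterns. CDO1 was high in J3T-1 alone, SQOR and NQO1 were higher in each parental line than in its own derivative, and MT2A was low in J3T-1shA alone. CTH was highest in J3T-1, GCLM was higher in both lines of J3T-1 origin than in those of J3T-2 origin, and GCLC and TXNRD1 were level.

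**Figure D1:**
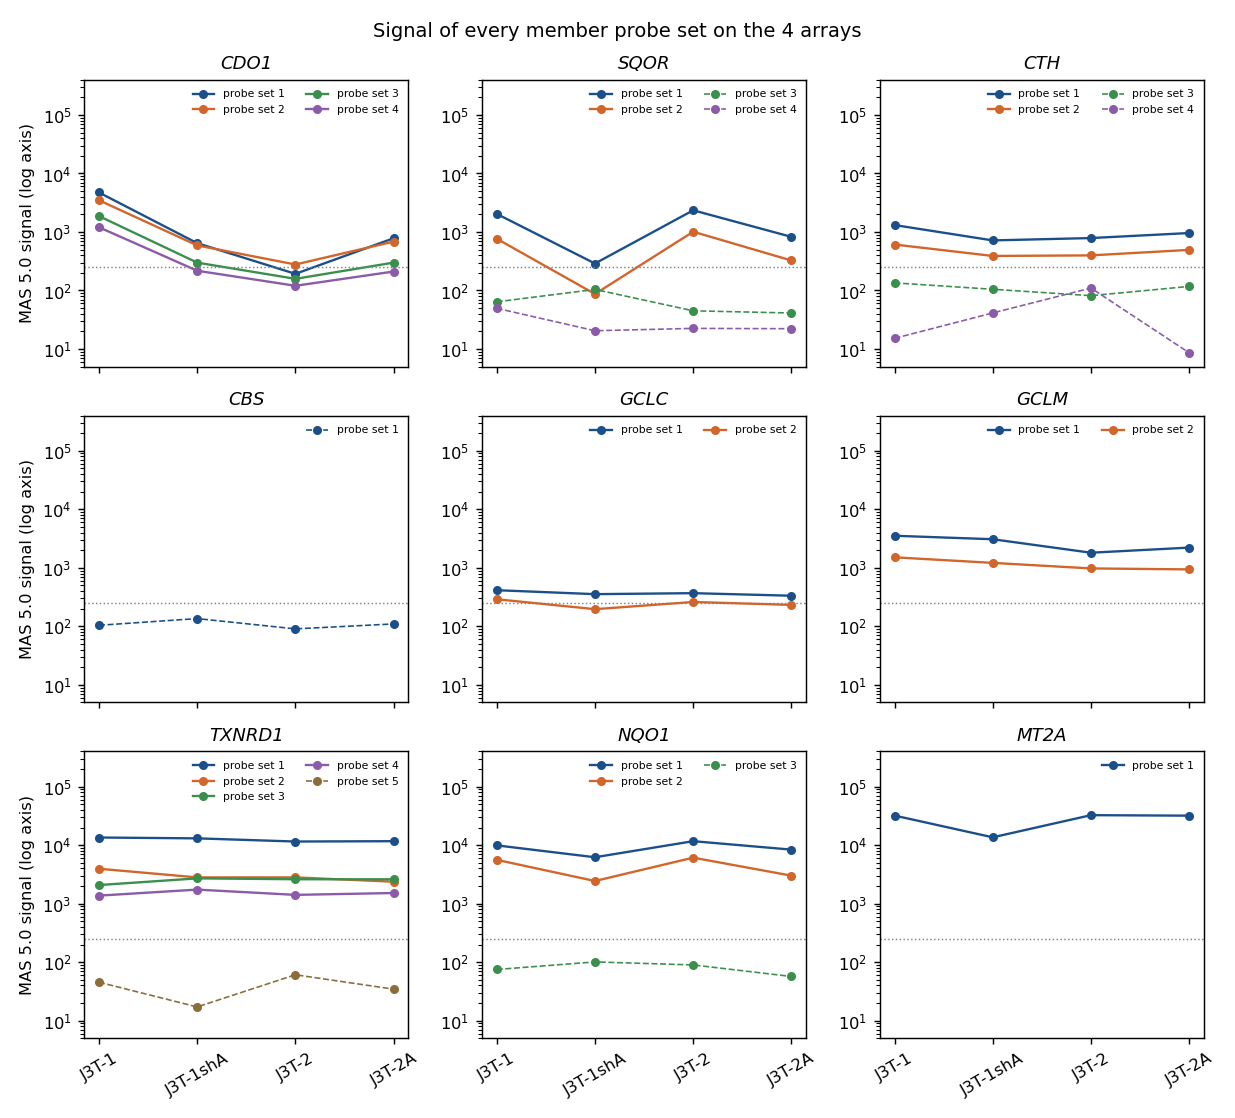
MAS 5.0 signal (log axis) of every member probe set on the 4 arrays as labelled, 1 array per line, with probe sets of a gene numbered from the brightest. Dashed lines are probe sets under the signal limit of 250 (dotted line) on all arrays, and lines between points only join the values of a probe set. CDO1 peaks in J3T-1, SQOR and NQO1 dip in J3T-1shA and J3T-2A, and MT2A dips in J3T-1shA.

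CDO1 encodes cysteine dioxygenase, which catalyses the first step of cysteine breakdown. Its brightest probe set had signals of 4730 in J3T-1, 643.6 in J3T-1shA, 192.4 in J3T-2 and 781.8 in J3T-2A. J3T-1 stood above the other 3 lines, J3T-2A and J3T-1shA differed within the probe-set error, and J3T-2 was lowest. In fold terms CDO1 was 7.35-fold higher in J3T-1 than in J3T-1shA, 6.05-fold higher than in J3T-2A and 24.6-fold higher than in J3T-2. The last of these was the third largest of 6967 measured genes, with a log2 ratio of 4.62, but its lower signal lay under the limit.

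All 4 CDO1 probe sets put J3T-1 first and J3T-2 last. The second probe set was over the limit on every array, at 3484 in J3T-1, 589.4 in J3T-1shA, 277.9 in J3T-2 and 685.0 in J3T-2A. By this probe set CDO1 was 12.5-fold higher in J3T-1 than in J3T-2, which shows how far the size of that ratio depends on the dim J3T-2 signal. The third probe set had 1868 in J3T-1 against 158.1 to 299.4 in the other lines, and the fourth had 1204 against 120.3 to 217.4. Between J3T-1 and J3T-1shA the 4 probe sets lay close together, at 5.54-fold to 7.35-fold.

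In the overexpression comparison the CDO1 probe sets differed more in size. J3T-2A was 4.06-fold higher than J3T-2 by the brightest probe set, 2.46-fold by the second and 1.89-fold by the third, and the fourth was under the limit on both arrays (210.9 and 120.3). The direction was the same in all 4. After a pseudocount of 80 the log2 ratio of the brightest was 1.66 in place of 2.02.

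Of 8 listed genes of cysteine breakdown and taurine handling, 4 were measured in each ANXA2 comparison, and CDO1 was the only one over 2-fold different in either. Among all measured genes, 3.8% were over 2-fold higher in J3T-1 than in J3T-1shA and 1.69% in J3T-2A than in J3T-2. The taurine transporter SLC6A6 had signals of 8868 to 11309, and GOT2, a mitochondrial aspartate aminotransferase that can also act on cysteine sulfinate, had log2 ratios of -0.57 in the knockdown comparison (J3T-1 over J3T-1shA) and 0.04 in the overexpression comparison (J3T-2A over J3T-2). GOT1, the cytosolic aminotransferase, was chosen after its values were seen and was also highest in J3T-1, at 2507 against 1676 to 1817 in the other lines. Its log2 ratio for the knockdown comparison was 0.58 by this probe set, beyond the probe-set error, and 0.17 by its second, within it. CSAD, which decarboxylates the product of CDO1 on the way to taurine, was under the limit throughout (9.9 to 30.6). The list had medians of 0.37 and 0.09 in the 2 comparisons, where the medians of all measured genes were 0.03 and -0.003.

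SQOR encodes the mitochondrial sulfide:quinone oxidoreductase, the first enzyme of sulfide oxidation. Its brightest probe set had signals of 2038 in J3T-1, 288.9 in J3T-1shA, 2347 in J3T-2 and 824.9 in J3T-2A. The parental lines J3T-1 and J3T-2 were high and differed within the probe-set error (log2 ratio -0.20), J3T-2A was lower, and J3T-1shA was lowest. SQOR was 7.05-fold higher in J3T-1 than in J3T-1shA, a log2 ratio of 2.82, and 2.85-fold lower in J3T-2A than in J3T-2, a log2 ratio of -1.51. J3T-2 over J3T-1shA gave the largest SQOR ratio of the 6 pairs, at 8.13-fold.

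A second SQOR probe set had the same order, with 766.6 in J3T-1, 87.0 in J3T-1shA, 1009 in J3T-2 and 325.4 in J3T-2A. Its ratios were 8.81-fold higher for J3T-1 over J3T-1shA and 3.10-fold lower for J3T-2A over J3T-2. The remaining 2 SQOR probe sets were dim, at 20.5 to 104.2, and gave no ratio.

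The other measured genes of sulfide metabolism were within 2-fold in both ANXA2 comparisons. ETHE1, the persulfide dioxygenase of mitochondria, had signals of 2947 to 3152, and MPST, which makes sulfane sulfur from mercaptopyruvate, had 3853 to 4718. By their brightest probe sets, neither gene differed by more than the probe-set error in an ANXA2 comparison. A second MPST probe set gave a log2 ratio of -0.39 in the knockdown comparison, just beyond the error of 0.37. TST, the sulfurtransferase rhodanese, and SUOX, sulfite oxidase, which were chosen after their values were seen, had log2 ratios of -0.77 and -0.66 in the overexpression comparison, both beyond the probe-set error, and of -0.23 and -0.07 in the knockdown comparison. Of 5 measured genes of sulfide oxidation, SQOR alone was over 2-fold higher in J3T-1 than in J3T-1shA. SQOR alone was over 2-fold lower in J3T-2A than in J3T-2. Of all measured genes, 3.8% were higher in the first pair and 2.1% lower in the second. The list medians were -0.07 and -0.66, and the second became 0.017 over 7 genes with no signal limit.

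CTH encodes cystathionine gamma-lyase, which releases cysteine in the last step of transsulfuration. Its brightest probe set had 1313 in J3T-1, 717.5 in J3T-1shA, 787.0 in J3T-2 and 958.9 in J3T-2A. J3T-1 was highest, and J3T-2A, J3T-2 and J3T-1shA followed, with gaps between neighbours inside the probe-set error. The ends of that run, J3T-2A over J3T-1shA, differed beyond it, with log2 ratios of 0.42 by this probe set and 0.34 by the second. CTH was 1.83-fold higher in J3T-1 than in J3T-1shA, within 2-fold but beyond the probe-set error, and 1.22-fold higher in J3T-2A than in J3T-2. A second probe set also had J3T-1 highest and J3T-1shA lowest, at 609.9 and 389.1. By this second probe set, however, J3T-1 and J3T-2A differed within the probe-set error (log2 ratio 0.30), as did J3T-2 and J3T-1shA (0.03). J3T-2A over J3T-2 was beyond it, at 0.31. The place of J3T-1 above J3T-2A thus rests on the brightest probe set. The other 2 probe sets were under the limit.

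CBS encodes cystathionine beta-synthase, the first enzyme of transsulfuration. Its single probe set had signals of 90.5 to 135.7, around the median of all probe sets, so no ratio was read. Across the methionine cycle and transsulfuration, none of the 5 or 6 measured genes was over 2-fold different in an ANXA2 comparison, and the medians were 0.29 in the knockdown and 0.09 in the overexpression comparison. MAT2A, which makes S-adenosylmethionine, had 3058 to 4126. AHCYL1, a homologue of the enzyme that splits S-adenosylhomocysteine, had log2 ratios of 0.52 and -0.36 by its brightest probe set and of 1.04 and -0.37 by its second.

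Both subunits of glutamate-cysteine ligase were within 2-fold between each line and its derivative. GCLC, the catalytic subunit of glutamate-cysteine ligase, had signals of 414.6 in J3T-1, 354.9 in J3T-1shA, 369.0 in J3T-2 and 333.6 in J3T-2A, and no neighbours in the order of these signals differed by more than the probe-set error. Its second probe set had 290.2 in J3T-1, 196.5 in J3T-1shA, 260.8 in J3T-2 and 232.5 in J3T-2A. By that probe set GCLC was 1.48-fold higher in J3T-1 than in J3T-1shA, a log2 ratio of 0.56 that was beyond the probe-set error, with the lower signal under the limit. GCLM, the modifier subunit of the same enzyme, had 3534 in J3T-1, 3082 in J3T-1shA, 1813 in J3T-2 and 2217 in J3T-2A. By this probe set both lines of J3T-1 origin were above both lines of J3T-2 origin. GCLM was 1.95-fold higher in J3T-1 than in J3T-2, a log2 ratio of 0.96, whereas the log2 ratios within each origin were 0.20 and 0.29. Its second probe set had 1514 in J3T-1, 1215 in J3T-1shA, 977.0 in J3T-2 and 940.7 in J3T-2A, which put J3T-1 1.55-fold above J3T-2. There J3T-1shA and J3T-2 differed within the probe-set error (log2 ratio of J3T-2 over J3T-1shA -0.31), so the split by origin rests on the brightest probe set.

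On the list of glutathione synthesis and turnover, GCLC and GCLM included, 2 of 11 measured genes were over 2-fold lower in J3T-1 than in J3T-1shA and none was higher. Of all measured genes in this pair, 4.26% were lower and 3.8% higher. CHAC1, which degrades glutathione and is induced by amino acid stress, had 78.1 in J3T-1 and 416.4 in J3T-1shA, and GGT7, a member of the gamma-glutamyltransferase family, had 111.7 and 372.1. Both were under the limit on the other 3 arrays. GGT7 had 242.1 in J3T-2A, just under the limit, and 68.9 in J3T-2, so it is not counted for that pair although its signals ran 3.51-fold higher in J3T-2A. LAP3, a peptidase that can split cysteinylglycine, and GSR, which regenerates reduced glutathione, were within 2-fold, with log2 ratios of 0.25 and -0.42. GSS, glutathione synthetase, was chosen after its values were seen and had 284.6 in J3T-1, 496.7 in J3T-1shA, 347.1 in J3T-2 and 554.5 in J3T-2A. It was within 2-fold but beyond the probe-set error in both ANXA2 comparisons (log2 ratios -0.80 and 0.68), and within that error by its second probe set (-0.29 and 0.03). In J3T-2A over J3T-2, none of 9 measured genes was over 2-fold different, and the list median was 0.26 against -0.05 in the knockdown comparison. Glutathione peroxidases and transferases had no gene over 2-fold different among 11 and 10 measured, with medians of 0.04 and 0.22. GPX1, a peroxidase with signals of 28848 to 32464, and GLRX3, a glutaredoxin, differed within the probe-set error in both comparisons.

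TXNRD1 encodes the cytosolic thioredoxin reductase. Its brightest probe set had 13527 in J3T-1, 13083 in J3T-1shA, 11550 in J3T-2 and 11708 in J3T-2A, a range of 1.17-fold with no neighbours apart by more than the probe-set error. Of the 3 other TXNRD1 probe sets over the limit on all arrays, the second was highest in J3T-1 (3956) and the 2 dimmer ones were lowest there (2082 and 1373). The probe sets therefore disagreed on where J3T-1 lay, with log2 ratios of J3T-1 over J3T-1shA from -0.38 to 0.49. By their brightest probe sets, all 16 measured genes of the thioredoxin and peroxiredoxin list were within 2-fold in both ANXA2 comparisons, with medians of -0.01 and -0.09. A second probe set of MSRB1, a gene of this list, gave a log2 ratio of -1.52 in the knockdown comparison. The brightest genes of the list, TXN and PRDX1, had log2 ratios between -0.06 and 0.08.

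NQO1 encodes a quinone reductase and is a standard readout of NRF2 activity. Its brightest probe set had 9928 in J3T-1, 6220 in J3T-1shA, 11713 in J3T-2 and 8395 in J3T-2A, so the parental lines were again above their derivatives, as for SQOR. NQO1 was 1.60-fold higher in J3T-1 than in J3T-1shA and 1.40-fold lower in J3T-2A than in J3T-2, both within 2-fold and beyond the probe-set error. The second probe set, with 5618, 2442, 6124 and 3014 in the same order of lines, put both differences over 2-fold, at 2.30-fold higher and 2.03-fold lower. The remaining NQO1 probe set was under the limit on all arrays. J3T-1 and J3T-2A themselves differed within the probe-set error by the brightest probe set (log2 ratio 0.24). By the second probe set J3T-1 was higher beyond that error, at 0.90.

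**Figure D2:**
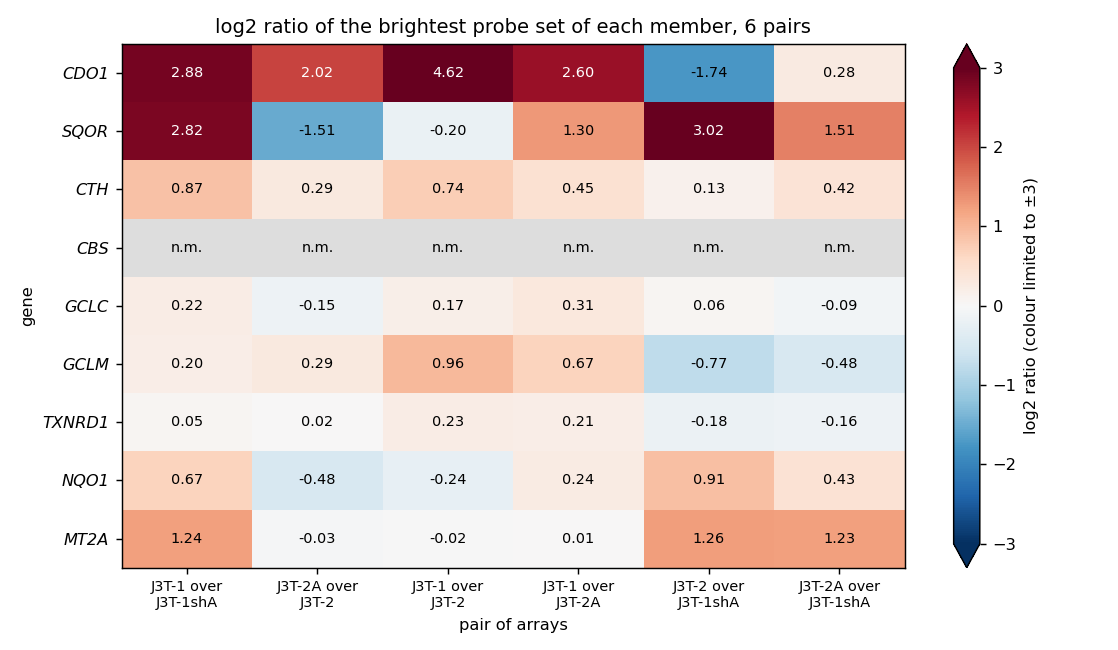
log2 ratio of the brightest probe set of each member (rows) for the 6 pairs of arrays (columns), with the value in each cell and the colour limited to 3 either way. Grey cells marked n.m. are CBS, which was under the signal limit on all arrays. The 2 left columns show CDO1 above 0 in both ANXA2 comparisons (2.88 and 2.02) and SQOR on opposite sides of 0 (2.82 and -1.51).

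The wider list of the NRF2 pathway and its targets held no gene over 2-fold different among 15 measured in J3T-1 over J3T-1shA, with a median of 0.13. In J3T-2A over J3T-2, 2.1% of all measured genes were over 2-fold lower and 1.69% higher. On this list 2 of 16 were lower and none was higher, with a median of -0.23. These were SOD2, the mitochondrial superoxide dismutase, at 1792 against 6866, and SQSTM1, an autophagy receptor that can free NRF2 from KEAP1, at 1445 against 3092. By a second probe set SOD2 was also over 2-fold lower (log2 ratio -1.73), whereas SQSTM1 was within 2-fold (-0.87). FTL, the ferritin light chain, had log2 ratios of 0.34 and -0.25, and SOD1, the cytosolic dismutase, had 0.12 and 0.03. NFE2L2, which encodes NRF2 itself, and its repressor KEAP1 were chosen after their values were seen and were within 2-fold in every pair.

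Of the 15 NRF2 list genes measured in both comparisons, 9 had positive ratios in the knockdown and negative ratios in the overexpression comparison, which is 60% against 29.2% of all 6563 genes measured in both. The 2 comparisons share no array. The 9 genes were KEAP1, NQO1, PGD, TKT, EPHX1, FTH1, FTL, SQSTM1 and SOD2, and 5 of them (KEAP1, PGD, EPHX1, FTH1 and FTL) were within the probe-set error in at least one comparison. Among the members, 4 of 8 measured in both had this pair of signs, SQOR, GCLC, NQO1 and MT2A. Only SQOR and NQO1 of these were beyond the probe-set error in both, since GCLC had 0.22 and -0.15 and the second ratio of MT2A was -0.03. No member had the opposite pair, which 26.5% of all genes had. The members and the list were chosen with earlier results of these data known, so nothing is read from these counts against the shares of all genes.

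MT2A encodes a metallothionein, which buffers zinc and copper through its many cysteines. Its single probe set had 32101 in J3T-1, 13628 in J3T-1shA, 32601 in J3T-2 and 31963 in J3T-2A. J3T-1shA was low, and the other 3 lines were within 1.02-fold of one another. MT2A was 2.36-fold higher in J3T-1 than in J3T-1shA, and its log2 ratio for J3T-2A over J3T-2 was -0.03. The 3 bright signals were 68.9% to 71.5% of the highest on their arrays, with 48 to 56 brighter probe sets, so compression of signals this bright was not tested and the closeness of the 3 lines is not read as equal messenger RNA.

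MT1E, a metallothionein gene next to MT2A in the UU_Cfam_GSD_1.0 annotation, was also lowest in J3T-1shA, by a dimmer single probe set. It had 2482 in J3T-1, 1107 in J3T-1shA, 3139 in J3T-2 and 3930 in J3T-2A, and was 2.24-fold higher in J3T-1 than in J3T-1shA. Metallothionein transcripts are alike in sequence, and whether the 2 probe sets read each other's transcript was not tested. MT4 was under the limit throughout (12.5 to 34.4).

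By their brightest probe sets, MT2A and MT1E were the only ones of 17 measured genes of metallothionein and metal buffering over 2-fold higher in J3T-1 than in J3T-1shA. None was lower, where 3.8% of all measured genes were higher and 4.26% lower. In J3T-2A over J3T-2 none of 19 was over 2-fold different. The medians were 0.20 and 0.07. A second probe set of SLC39A14, a gene of this list, gave a log2 ratio of -1.06 in the overexpression comparison. The zinc transporters SLC39A10 and SLC39A7 had log2 ratios of 0.33 and -0.86 in the knockdown comparison by their brightest probe sets, and the second SLC39A7 probe set gave -1.41. MTF1, the zinc-sensing activator of metallothionein genes, was chosen after its values were seen and had 375.6 in J3T-1, 328.1 in J3T-1shA, 396.4 in J3T-2 and 389.7 in J3T-2A.

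**Figure D3:**
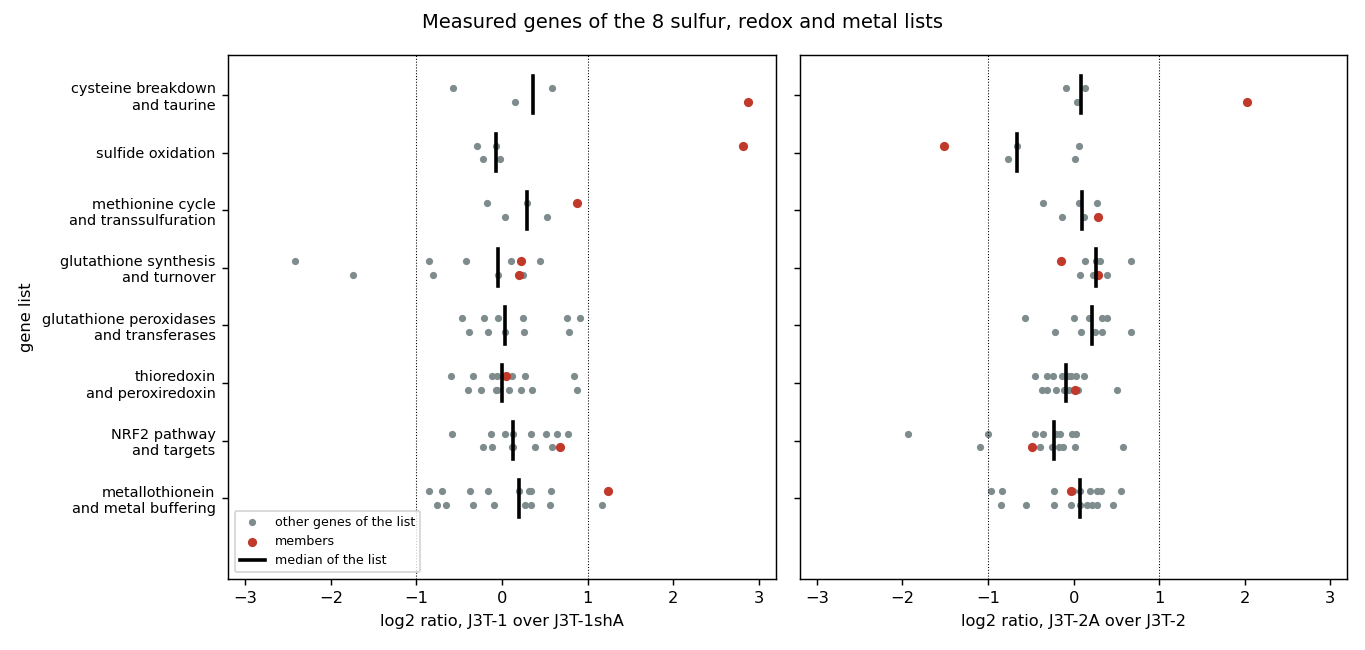
log2 ratio (x axis) of each measured gene of the 8 sulfur, redox and metal lists (y axis) for J3T-1 over J3T-1shA (left) and J3T-2A over J3T-2 (right), 1 point per gene by its brightest probe set. Red points are members, black bars are list medians and dotted lines mark 2-fold. CDO1 and SQOR lie apart from the other genes of their lists on the left, at 2.88 and 2.82.

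Counted together, 3 of 8 measured members (CDO1, SQOR and MT2A) were over 2-fold higher in J3T-1 than in J3T-1shA and none was lower, where 3.8% of all 6944 measured genes were higher and 4.26% lower. In J3T-2A over J3T-2, CDO1 was higher and SQOR lower, where 1.69% of 6860 genes were higher and 2.1% lower. Between the parental lines CDO1 alone was over 2-fold higher in J3T-1 and none was lower, where 2.94% of 6967 genes were higher and 4.05% lower. The members were picked with these ratios known, so nothing is read from their counts against those shares. The 76 and 77 other measured genes of the lists, from lists also drawn up with earlier results known, held 1 higher and 2 lower in the knockdown comparison and 0 higher and 2 lower in the overexpression comparison, that is 1.32% and 2.63%, and 0% and 2.60%.

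In the pairs across the 2 origins, CDO1 and SQOR were over 2-fold higher in J3T-1 than in J3T-2A, and none was lower, where 1.94% of 6850 genes were higher and 2.72% lower. SQOR and MT2A were over 2-fold higher in J3T-2 than in J3T-1shA and CDO1 was lower, where 5.31% of 7012 genes were higher and 4.39% lower. SQOR and MT2A were also higher in J3T-2A than in J3T-1shA, and none was lower, where 3.11% of 6846 genes were higher and 2.66% lower. These pairs share arrays with the comparisons above and are given side by side. The members GCLC, GCLM, CTH, TXNRD1 and NQO1 were within 2-fold in all 6 pairs by their brightest probe sets.

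**Figure D4:**
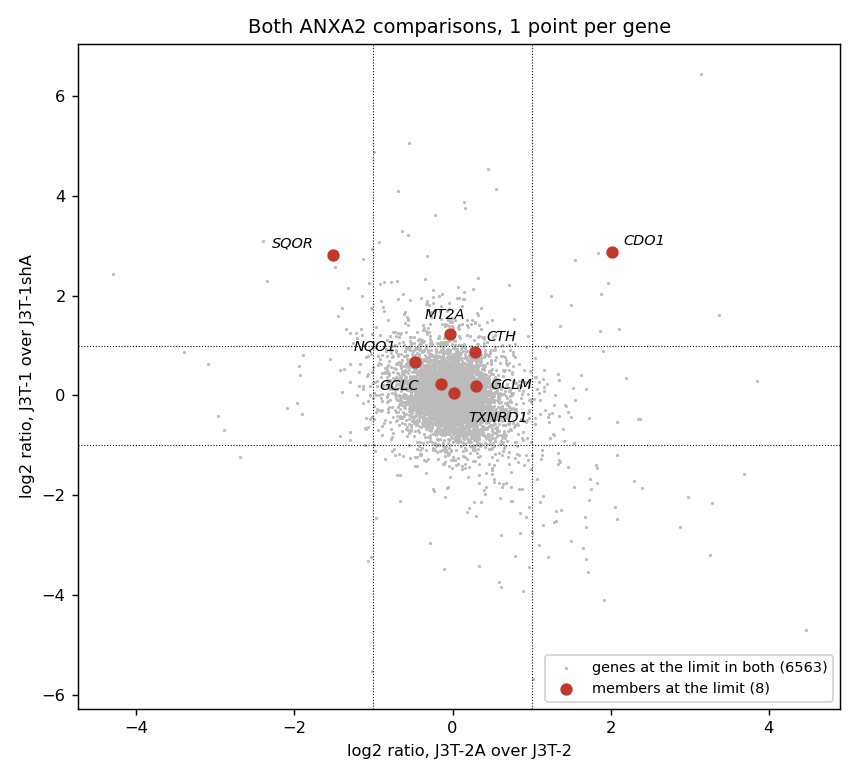
log2 ratio for J3T-2A over J3T-2 (x axis) and for J3T-1 over J3T-1shA (y axis) of the 6563 genes measured in both (grey) and of the 8 measured members (red), with dotted lines at 2-fold. CDO1 lies over 2-fold higher in both comparisons, SQOR in opposite directions (2.82 and -1.51), and the other members within 2-fold for J3T-2A over J3T-2.

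Among 7240 other genes over the limit on any array, those with the 4-array pattern most like CDO1, by the Euclidean distance between log2 signals centred on each gene, were PLK2, ZNF32, CHST2, GUCY1A1 and PHLDB2, at distances of 0.85 to 1.45 where the median was 3.31. PLK2 had 1076 in J3T-1, 163.3 in J3T-1shA, 93.0 in J3T-2 and 272.6 in J3T-2A, so it was likewise high in J3T-1 and lowest in J3T-2. For SQOR the nearest were MXD4, GALNT6, SERINC2, FOS and GAPDH, at 0.38 to 0.62 with a median of 2.44. The GAPDH probe set was dim, at 355.9 in J3T-1, 37.2 in J3T-1shA, 224.6 in J3T-2 and 113.1 in J3T-2A. It was over the limit in J3T-1 alone and is not read as the level of the GAPDH transcript. SERINC2 was over the limit on 1 array, MXD4 and GALNT6 on 2 and FOS on 3. Of the nearest genes listed for CDO1 and SQOR, PHLDB2 alone was over the limit on all 4 arrays.

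The glial markers partly matched the label of glioma cells. SOX2, VIM and CD44 were over the limit on all 4 arrays, whereas GFAP and S100B, markers of astrocytes, were under it throughout (8.2 to 33.6). NES, the progenitor marker nestin, was over it in J3T-1shA alone (345.9 against 94.9 to 150.2) and was 2.30-fold lower in J3T-1 than in J3T-1shA, the comparison in which CDO1, SQOR and MT2A were higher. Markers of other cell types moved with some of the members, and their part in the results was not tested. The 8 fibroblast and pericyte markers summed to 39826 in J3T-1, 81738 in J3T-1shA, 53818 in J3T-2 and 72664 in J3T-2A, so the derivatives, in which SQOR and NQO1 were lower, had the higher sums. Of these 8 markers, 5 were measured in J3T-1 over J3T-1shA. COL1A1, DCN and ACTA2 were over 2-fold lower, where 4.26% of all measured genes were lower. In J3T-2A over J3T-2, 4 markers were measured and COL1A1 alone was over 2-fold higher, where 1.69% of all measured genes were. DCN ran the other way (log2 ratio -0.70). The sums were made up mostly of the bright COL1A1, COL1A2 and LUM signals, with ACTA2 in J3T-1shA. Neuronal markers summed to 15594 in J3T-2 against 2216 to 6340 elsewhere, nearly all of it NEFL. Endothelial markers summed to 1058 in J3T-2, mostly PECAM1, against 214.3 to 380.1. Epithelial markers summed to 394.8 to 1128, highest in J3T-2, and microglial and macrophage markers to 483.7 to 841.4, with C1QA the only one over the limit. Hepatocyte markers, of a tissue rich in CDO1, were under the limit on all arrays (3.0 to 75.5). In such bulk RNA, fewer cells with a transcript and less of it per cell cannot be told apart.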

How the data were processed

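Total RNA of 4 canine lines was labelled and hybridized, 1 GeneChip Canine Genome 2.0 array per line. The authors computed probe set signals, linear intensities, with MAS 5.0 at default settings and global scaling, and deposited 42924 values per array without detection calls. No genome build is given for the array in the sources used here, so no coordinates are printed, and the UU_Cfam_GSD_1.0 gene table was used only for names and for which genes are neighbours.

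The array annotation listed 29693 probe sets, 29254 with 1 symbol, 439 with several, and symbols looked up by Entrez identifier for 27680 changed for 0. Each gene stood by its probe set with the highest mean signal. Ratios were taken without normalization, pseudocount or floor in Python 3.11.15 with pandas 2.3.3, after the counting was tested on simulated data. With 1 array per line no test was made.

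The members, the 8 pathway lists and the 7 marker lists were chosen with earlier results of these data known. Named list genes were those over 2-fold in either ANXA2 comparison and the 2 brightest within 2-fold per list, and the 5 nearest patterns were sought for CDO1 and SQOR. The alternatives were a pseudocount of 80, quantile normalization, median centring, a limit of 500 or none, and the median or the second brightest probe set.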

Additional observations from a re-analysis of the deposited data

Results flagged for a closer look

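SQOR had opposite directions in the 2 ANXA2 comparisons. Its log2 ratio was 2.82 in the knockdown comparison (J3T-1 over J3T-1shA) and -1.51 in the overexpression comparison (J3T-2A over J3T-2), a difference of 4.33, with both beyond the probe-set error. A second probe set gave 3.14 and -1.63. With 1 array per line the difference was not tested.

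NQO1 also had opposite directions, with log2 ratios of 0.67 and -0.48 and a difference of 1.16. Both were beyond the probe-set error, but in size under the 95th percentile of the probe-set differences, 0.73 and 0.56. Its second probe set gave 1.20 and -1.02. This difference was not tested either.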

How the results depend on the processing

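Of 6 counts of members over 2-fold higher or lower under 7 alternatives, 41 of 42 values stayed within 1.5 times the reported one. The exception was the second brightest probe set, by which 2 members in place of 1 (SQOR, and NQO1 with it) were lower in J3T-2A than in J3T-2. By the same choice NQO1 was also over 2-fold higher in J3T-1 than in J3T-1shA (log2 ratio 1.20). The count of members higher in that pair rose with it, within 1.5 times. Of 112 list medians under the same alternatives, 111 moved within the probe-set error, and with no signal limit the median of the sulfide oxidation genes for J3T-2A over J3T-2 was 0.017 in place of -0.66. For the member probe set ratios, a changed signal limit cannot alter a ratio, and median centring shifts all ratios of a pair alike. These alternatives therefore could not test the ratios. Under quantile normalization all 110 ratios moved within that error. After the pseudocount of 80, 102 moved within it and 8 beyond it, all of CDO1 or SQOR probe sets with a dim array, and none reversed. No paired analysis was possible because each line had 1 array. The number of arrays limits the precision, and signals under 250 or near the highest on the array limit the ratios of CBS, CDO1 in J3T-2 and MT2A.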

Other observations

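Between the parental lines, a few list genes outside the members were over 2-fold apart. SOD2 had 6866 in J3T-2 and 1287 in J3T-1, a 5.34-fold difference, and CAT, which encodes catalase, had 3718 and 1219, a 3.05-fold difference. SQSTM1 and BACH1, a repressor of NRF2 targets, were 2.31-fold and 2.20-fold higher in J3T-2, and the rhodanese gene TST was 2.31-fold higher. SLC39A14, a transporter of zinc, iron and manganese, had 854.0 against 243.9. ME1, an NADPH-producing malic enzyme, ran the other way and was 2.22-fold higher in J3T-1. In all, 1 of 76 measured list genes that were not members was over 2-fold higher in J3T-1 and 6 were lower, that is 1.32% and 7.89%, where 2.94% and 4.05% of all measured genes were. By their brightest probe sets, none of 15 measured thioredoxin and peroxiredoxin genes and none of 11 glutathione peroxidases and transferases was over 2-fold different. Their median ratios of J3T-1 to J3T-2 were 0.06 and 0.29 on the log2 scale. Second probe sets of TXNIP and TXNRD2 gave log2 ratios of -1.82 and -2.35 for this pair. The genes named here were chosen after their values were seen, and the difference from all genes was not tested.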
